A study of Homo sapiens with 6 samples.

Results

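The 10 genes EGR1, EGR2, EGR3, NR4A1, NR4A2, NR4A3, IER2, IER3, IER5 and SRF were picked by name from the 58735 named genes of a table of read counts from 8505C, a human cell line from an anaplastic thyroid carcinoma with an activating BRAF mutation. Each name matched 1 row, and coordinates are given as in the table, where they equal GENCODE v29 (GRCh38). The table holds 3 libraries of cells with a short hairpin RNA against HHEX (columns KD1, KD2 and KD3), a homeobox transcription factor of thyroid development, and 3 libraries with a control hairpin (control1, control2 and control3). The labels give the HHEX group the genotype HHEX KD and the control group the genotype wild-type, and both the treatment untreated, the line 8505C and a day of growth after plating in wells. Nothing says whether the libraries came from separate cultures, infections or clones, and a p-value here measures only the variation between libraries, which may be technical.

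Immediate early genes are transcribed within minutes of a growth factor, stress or adhesion signal without new protein synthesis, and their mRNAs are short-lived. The RAS, RAF, MEK and ERK cascade phosphorylates ELK factors bound with serum response factor (SRF) at promoter sites called CArG boxes, and the EGR zinc finger transcription factors are classic products of this route. The NR4A genes encode orphan nuclear receptors and respond strongly to cyclic AMP through CREB, while the IER genes encode small proteins that act in growth, survival and stress. In thyroid cells these genes respond to thyrotropin and to growth factors.

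Total counts over named genes were 14052770 to 15067566 in the HHEX shRNA libraries and 13333245 to 15144176 in the control libraries. HHEX, the target of the hairpin, had CPM values (counts relative to the library total, scaled with TMM factors) of 14.8, 7.93 and 7.12 in KD1, KD2 and KD3, against 12.6, 12.8 and 11.98 CPM in control1, control2 and control3. The library labelled KD1 thus lay above every control, so that the target goes against its label, and KD1, KD2 and KD3 stand hereafter for the libraries that carry these labels. Across 14280 tested genes, log2 CPM of KD1 and KD2 correlated at a Pearson r of 0.989, and KD3 with them at 0.955 and 0.956 and with the controls at 0.971 to 0.977. Genes are not independent replicates in such a value. The titles give the same first replicate number to 2 of the 3 libraries of each group, but do not tie it to KD1, KD2 or KD3. NKX2-1 and PAX8, transcription factors of thyroid cells, were detected in every library, while TG, the precursor of thyroid hormone, was at 0 CPM in 5 of 6 libraries. The summed level of 6 leukocyte markers was 3.03 to 4.25 CPM in the HHEX shRNA libraries and 2.99 to 4.71 CPM in the control libraries, with LYZ at 0 in all 6.

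Promoter windows were searched for CArG boxes in those of the 10 genes that had a matched sequence. RefSeq promoter sequences (GRCh38.p14) were matched for 7 of the 10 genes, in 11 windows, and the 250 bases before each start were searched on both strands. The 3 windows with a CArG box are printed 5′ to 3′ in the direction of the gene, with the CArG boxes in capitals. They belong to EGR1 (chr5:138465229-138465478, plus strand), EGR2 (chr10:62816367-62816616, minus strand) and SRF (chr6:43171019-43171268, plus strand). The starts are RefSeq starts and need not equal the gene coordinates given below. The EGR2 window lies inside the span of the gene in the table, 62811996 to 62919900.
EGR1: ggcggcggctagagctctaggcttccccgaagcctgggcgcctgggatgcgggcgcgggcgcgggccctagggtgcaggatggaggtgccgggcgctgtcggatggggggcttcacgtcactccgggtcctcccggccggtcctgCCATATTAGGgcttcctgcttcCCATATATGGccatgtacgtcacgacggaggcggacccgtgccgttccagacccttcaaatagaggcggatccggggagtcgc
EGR2: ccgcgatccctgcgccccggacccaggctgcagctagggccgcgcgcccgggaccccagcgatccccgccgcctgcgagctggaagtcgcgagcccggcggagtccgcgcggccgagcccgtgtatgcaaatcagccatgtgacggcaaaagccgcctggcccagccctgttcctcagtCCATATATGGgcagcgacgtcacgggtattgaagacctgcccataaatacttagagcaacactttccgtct
SRF: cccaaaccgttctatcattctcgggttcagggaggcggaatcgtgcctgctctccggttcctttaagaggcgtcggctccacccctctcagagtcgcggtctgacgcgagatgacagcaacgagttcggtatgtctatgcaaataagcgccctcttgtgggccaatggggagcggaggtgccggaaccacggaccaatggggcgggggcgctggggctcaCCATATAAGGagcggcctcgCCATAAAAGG

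EGR1 held a CArG box from 105 to 96 and another from 83 to 74 bases before the start, EGR2 held one from 71 to 62, and SRF held them from 30 to 21 and from 10 to 1. Of 35116 windows of this length in the table, 407 or 1.16% held a CArG box. The core of the cyclic AMP response element, TGACG, stood in windows of EGR1, EGR2, SRF, NR4A3 and IER2, with 4 copies in NR4A3, and in 21.2% of all windows. The NR4A3 window (chr9:99821635-99821884) overlaps an exon. Its copy from 25 to 21 bases before the RefSeq start lies past the gene start in the table, 99821855. The whole element, TGACGTCA, stood in none of the 11 windows and in 1.65% of all. The EGR site, GCGTGGGCG or GCGGGGGCG, was found once, from 49 to 41 bases before the SRF start, and in 5.37% of all windows. An NF-kB site stood in another SRF window (chr6:43172146-43172395), which lies inside the gene and overlaps an exon, and in 5.21% of all windows. No window of these genes held the AP-1 site TGANTCA (6.57% of all windows) or a heat shock element, GAANNTTCNNGAA or TTCNNGAANNTTC (0.441%). A match is a run of letters and not a shown binding site. EGR3, NR4A2 and IER3 were not matched.

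Levels can be compared between genes only per length, for which CPM was divided by the merged exon length of each gene in GENCODE v29 and is given per kilobase. IER3 stood at 30.2, 29.7 and 28.4 CPM per kilobase in KD1, KD2 and KD3, against 27.99, 47.8 and 30.6 in the controls, the highest of the 10 genes in every library but KD3. SRF stood at 22.2, 19.6 and 19.4 CPM per kilobase in KD1, KD2 and KD3, against 15.7, 16.7 and 16.3 in the controls, where it came next. EGR1 stood at 5.61, 6.14 and 114 CPM per kilobase in KD1, KD2 and KD3, against 11.6, 11.1 and 13.6 in the controls. It was thus the highest of the 10 genes in KD3, the third in the controls and, in KD1 and KD2, below IER5 and IER2. IER2 lay at 9.11 to 10.1 CPM per kilobase in the HHEX shRNA libraries, against 7.88 to 11.3 in the controls, and IER5 at 12.1 to 17.6, against 7.76 to 10.3 in the controls. Across the control libraries EGR1 overlapped IER2 and IER2 overlapped IER5, so that their order there is within their spread. NR4A2 lay at 4.48 to 5.61 CPM per kilobase in the HHEX shRNA libraries, against 2.36 to 4.95 in the controls, NR4A1 at 1.57 to 2.38, against 1.22 to 1.35, and NR4A3 at 0.469 to 0.736, against 0.179 to 0.426. These 3 genes did not overlap each other in either group. EGR3 and EGR2 came last in the controls, with overlapping values and averages of 0.107 and 0.0911 CPM per kilobase, and in KD3 stood at 1.26 and 1.18 CPM per kilobase.

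The 3 EGR genes were far higher in KD3 than in any other library. EGR1 (ENSG00000120738, chromosome 5, 138465490 to 138469315, plus strand), which activates and represses growth and stress genes, stood at 17.6, 19.3 and 357 CPM across KD1, KD2 and KD3, against 36.2, 34.9 and 42.6 CPM in control1, control2 and control3. KD1 and KD2 lay below every control, at 46.4% and 50.9% of the control mean of 37.9 ± 4.09 CPM (SD, n = 3), and KD3 lay above every control, at 9.41 times that mean. In RNA from a whole culture, a higher level in each cell and a larger share of cells that express the gene cannot be told apart. The exact 95% Poisson interval, which covers counting error only, was 347 to 367 CPM in KD3 and 15.5 to 21.7 CPM over KD1 and KD2, against 32.0 to 46.0 CPM over the controls. By log2 difference from the control mean EGR1 ranked 8 of 14280 in KD3, counted from the highest, and 13270 and 12988 in KD1 and KD2. Between the groups EGR1 differed by 1.79 on the log2 scale (SE 1.17, with 95% confidence limits of -1.03 and 4.61), which missed the threshold (edgeR quasi-likelihood test, adjusted p = 0.417). Without KD3 it was -1.01 with an edgeR adjusted p = 0.000224, and it was 2.31 without KD1. The fit without KD3 rests on KD1 and KD2, which correlated at 0.989, and it called 31.6% of all tested genes.

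EGR2 (ENSG00000122877, chromosome 10, 62811996 to 62919900, minus strand), known for its part in myelination and lymphocyte tolerance, had 6, 0 and 62 counts in KD1, KD2 and KD3, against 3, 2 and 10 counts in the controls. That was 4.37 CPM in KD3 (exact Poisson interval 3.35 to 5.60), against 0.336 ± 0.277 CPM in the controls (SD, n = 3), a ratio of 13.0. A count of 0 in KD2 allows up to 3 counts, or 0.214 CPM there, and KD1 lay within the control range. EGR3 (ENSG00000179388, chromosome 8, 22687659 to 22693302, minus strand), a close relative that acts in muscle spindles and lymphocytes, had 6, 3 and 87 counts in KD1, KD2 and KD3, against 6, 7 and 10 counts in the controls. That was 6.13 CPM in KD3 (4.91 to 7.56), against 0.521 ± 0.112 CPM in the controls, a ratio of 11.8, with KD1 and KD2 below every control. For both genes the Poisson intervals of KD1 and KD2 overlapped those of every control, except for EGR2 in KD2 against control3. EGR2 and EGR3 were too low outside KD3 for the filter on low counts and were not tested with the other 8 genes. In a fit without that filter EGR2 had a log2 fold change of 2.20 (edgeR adjusted p = 0.264) and EGR3 of 2.09 (edgeR adjusted p = 0.0851). KD3 over the mean of KD1 and KD2 was 19.4 for EGR1, 21.6 for EGR2 and 19.8 for EGR3, given as values with no test.

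**Figure D1:**
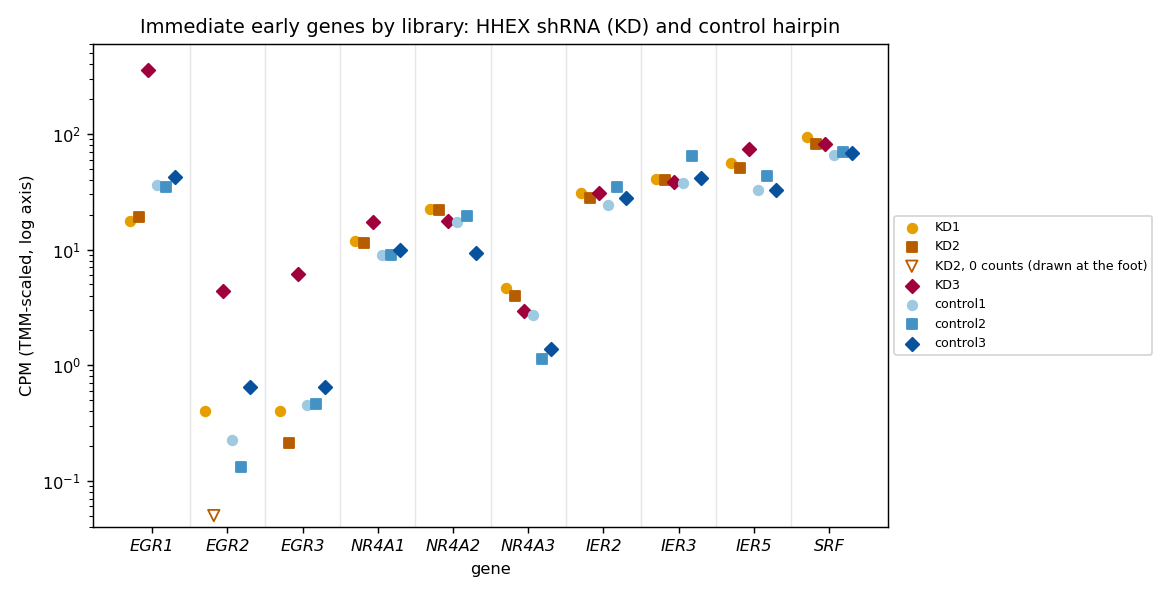
CPM of each gene in each library (log axis; KD1 to KD3 in warm colours left of control1 to control3 in blue; the open triangle is EGR2 in KD2 with 0 counts). EGR1, EGR2 and EGR3 in KD3 stand at 357, 4.37 and 6.13 CPM, above all other libraries. The IER genes and SRF spread less between libraries than the EGR genes, with IER5 from 32.5 CPM in control1 to 73.7 CPM in KD3.

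NAB1 and NAB2 encode co-repressors that bind EGR proteins, and NAB2 is itself induced by EGR1. NAB2 stood at 26.4, 23.0 and 33.8 CPM across KD1, KD2 and KD3, against 23.4, 25.6 and 18.8 CPM in the controls (log2 fold change 0.29, edgeR adjusted p = 0.405). KD3 was the highest of the 6 libraries, KD1 lay just above every control, and KD2 lay within their range. NAB1 stood at 46.1, 49.0 and 34.3 CPM across KD1, KD2 and KD3, against 35.9 to 38.5 CPM in the controls (log2 fold change 0.22, edgeR adjusted p = 0.442). Here KD1 and KD2 lay above every control and KD3 below every control. Of these 2 co-repressors edgeR without KD3 called 1, where it called 31.6% of all tested genes. Of 8 genes reported to be targets of EGR1, 0 passed edgeR's test, 4 had a positive and 4 a negative log2 fold change, and the median was 0.11, against -0.01 over all tested genes. An unadjusted p under 0.05 was found for 2 of the 8 (20.6% of all tested genes), DESeq2 called 1 (6.04%), and edgeR without KD3 called 3 (31.6%), so that these counts are near the background. Among them F3, tissue factor, stood at 423, 416 and 353 CPM, against 255, 280 and 319 CPM in the controls, with every HHEX shRNA library above every control (edgeR adjusted p = 0.144). PDGFA, a growth factor chain, was highest in KD3, at 10.3, 7.21 and 14.2 CPM across KD1, KD2 and KD3, against 7.77, 8.63 and 7.68 CPM. PDGFB, its relative, lay at 5.86 to 7.33 CPM, below the controls at 8.37 to 9.63 CPM (edgeR adjusted p = 0.231).

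In KD3 the NR4A receptors lay closer to their control means than the EGR genes did. In KD1 and KD2 NR4A3 lay further from its control mean (log2 difference 1.45 and 1.24) than EGR1 (-1.10 and -0.965). NR4A1 and NR4A3 had every HHEX shRNA library above every control, as did 11.6% of all tested genes. NR4A1 (ENSG00000123358, chromosome 12, 52022832 to 52059507, plus strand), a regulator of apoptosis and metabolism, stood at 11.9, 11.4 and 17.3 CPM across KD1, KD2 and KD3, against 8.89, 8.96 and 9.83 CPM in the controls. KD3 was the highest, at 1.88 times the control mean. Between the groups it differed by 0.56 on the log2 scale (SE 0.213, adjusted p = 0.199 by edgeR). NR4A3 (ENSG00000119508, chromosome 9, 99821855 to 99866891, plus strand), a receptor tied to haematopoietic and metabolic control, stood at 4.65, 4.0 and 2.96 CPM, against 2.69, 1.13 and 1.37 CPM in the controls. Here KD1 and KD2 were the highest libraries, at 2.69 and 2.31 times the control mean, and KD3 lay just above control1. Between the groups it differed by 1.17 on the log2 scale (SE 0.395, adjusted p = 0.167 by edgeR). Without KD3 it was 1.36, which passed (edgeR adjusted p = 0.0167), as did 31.6% of all tested genes in that fit. NR4A2 (ENSG00000153234, chromosome 2, 156324432 to 156342348, minus strand), needed for dopaminergic neurons, stood at 22.2, 21.9 and 17.8 CPM, against 17.5, 19.6 and 9.37 CPM in the controls. KD1 and KD2 lay above every control and KD3 within their range, and the spread of the controls came mainly from control3. The group difference was 0.41 on the log2 scale (SE 0.266, adjusted p = 0.399 by edgeR) and 0.15 without control3. RXRA and RXRB, partners of NR4A1 and NR4A2 on DNA, had log2 fold changes of -0.05 and -0.18 (edgeR adjusted p = 0.871 and 0.404), and RXRG was below the filter on low counts.

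IER5 had the lowest adjusted p of the 8 tested genes. IER5 (ENSG00000162783, chromosome 1, 181088712 to 181092899, plus strand), a nuclear protein that promotes the activity of heat shock factor HSF1, stood at 55.8, 50.7 and 73.7 CPM across KD1, KD2 and KD3, against 32.5, 43.4 and 32.9 CPM in the controls. Each HHEX shRNA library lay above every control, and KD3 was highest, at 2.03 times the control mean. Between the groups it differed by 0.73 on the log2 scale (SE 0.184, with 95% confidence limits of 0.31 and 1.15; edgeR, adjusted p = 0.114). IER5 passed with DESeq2 (log2 fold change 0.75, adjusted p = 0.0174), with edgeR without the filter on low counts (0.73, adjusted p = 0.00155) and with edgeR without KD3 (0.58, adjusted p = 0.00964). In these fits 6.04%, 4.8% and 31.6% of all genes passed.

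IER2 (ENSG00000160888, chromosome 19, 13150415 to 13154908, plus strand), a nuclear protein linked to cell motility, stood at 30.6, 28 and 31.2 CPM across KD1, KD2 and KD3, against 24.2, 34.8 and 27.99 CPM in the controls. All 3 HHEX shRNA libraries lay within the range of the controls. The log2 fold change was 0.04 (95% confidence interval -0.33 to 0.42, edgeR adjusted p = 0.898), and it turned to -0.02 with upper-quartile scaling and to -0.04 without control1. IER3 (ENSG00000137331, chromosome 6, 30743199 to 30744554, minus strand), which modulates apoptosis and ERK signalling, stood at 41.0, 40.3 and 38.5 CPM, against 38.0, 64.8 and 41.5 CPM in the controls. Its HHEX shRNA libraries also lay within the control range, and control2 alone was high. The log2 fold change was -0.27 (95% confidence interval -0.73 to 0.19, edgeR adjusted p = 0.467) and 0.03 without control2. These intervals leave room for differences of either sign.

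SRF (ENSG00000112658, chromosome 6, 43171299 to 43181507, plus strand), the factor that binds CArG boxes, stood at 93.5, 82.4 and 81.6 CPM across KD1, KD2 and KD3, against 66.1, 70.2 and 68.7 CPM in the controls. The groups did not overlap, and KD1 was the highest, at 1.37 times the control mean. Between the groups SRF differed by 0.33 on the log2 scale (SE 0.116, adjusted p = 0.181 by edgeR), and by 0.39 without KD3 (edgeR, adjusted p = 0.0183). Of the 3 genes with a printed CArG box, EGR1 lay at 9.41, EGR2 at 13.0 and SRF at 1.19 times its control mean in KD3, given as values with no test. Of 6 SRF cofactors (ELK1, ELK3, ELK4, MRTFA, MRTFB and MYOCD), all tested, 0 passed edgeR's test and 6 had a positive log2 fold change, with a median of 0.18. None had an unadjusted p under 0.05 in edgeR or a call in DESeq2, and edgeR without KD3 called 1 of the 6, where it called 31.6% of all tested genes. ELK1, which ERK phosphorylates, stood at 78.5, 74.6 and 62.7 CPM, against 52.0, 64.4 and 57.2 CPM in the controls.

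**Figure D2:**
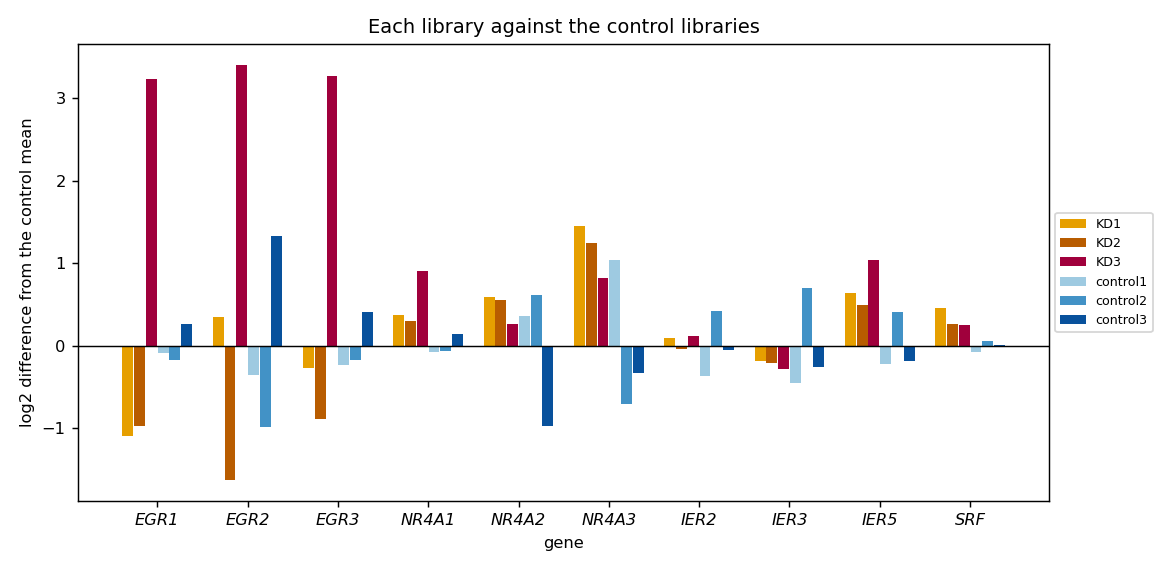
Log2 difference of each library from the control mean for the 10 genes (prior count 2; each control library is set against the mean of the other 2). KD3 reaches 3.24, 3.40 and 3.26 for EGR1, EGR2 and EGR3, where KD1 and KD2 are at or below 0.35.

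Of the 8 tested genes, 0 passed edgeR's test between the groups, where 0.182% of the 14280 tested genes did. At an unadjusted p under 0.05 there were 4, NR4A1, NR4A3, IER5 and SRF, where 20.6% of all tested genes had such a p. The same 4 genes had every HHEX shRNA library above every control, a pattern seen in 11.6% of all tested genes, and 0 had the opposite pattern, seen in 13.3%. For each of the 4 the exact two-sided permutation p was 0.1, the smallest that 3 against 3 libraries can give. The median log2 fold change of the 8 genes was 0.48, against -0.01 over all tested genes. With DESeq2 1 of the 8 passed, IER5, where 6.04% of all tested genes did. DESeq2 gave EGR1 a log2 fold change of 1.80 but no adjusted p, so that EGR1 had no verdict there. Without the filter on low counts edgeR called 1 of 10, IER5 again, where 4.8% of all genes in that fit were called. Without KD3, edgeR called 4 of the 8, with NR4A3, IER5 and SRF higher and EGR1 lower, where 31.6% of all tested genes were called. Leaving out any other library gave 0.

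Taken library by library against the 3 controls, with no test, NR4A3 was the gene at least 2-fold above the control mean in KD1 and in KD2, where 3.98% and 4.24% of all tested genes were. EGR1 was at least 2-fold below it in KD1, where 9.86% of all tested genes were, and 0 of the 8 genes were so in KD2 (9.96%), where EGR1 lay at 50.9%. In KD3 EGR1 and IER5 were at least 2-fold above the control mean, where 1.86% of all tested genes were, and 0 were as far below (4.77%). Outside the range of the 3 controls lay 6 of the 8 genes in KD1, 6 in KD2 and 5 in KD3, where 71.1%, 72.0% and 61.6% of all tested genes did. These shares are near the background, so that lying outside the control range says little of these genes. The 3 comparisons share their control libraries.

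**Figure D3:**
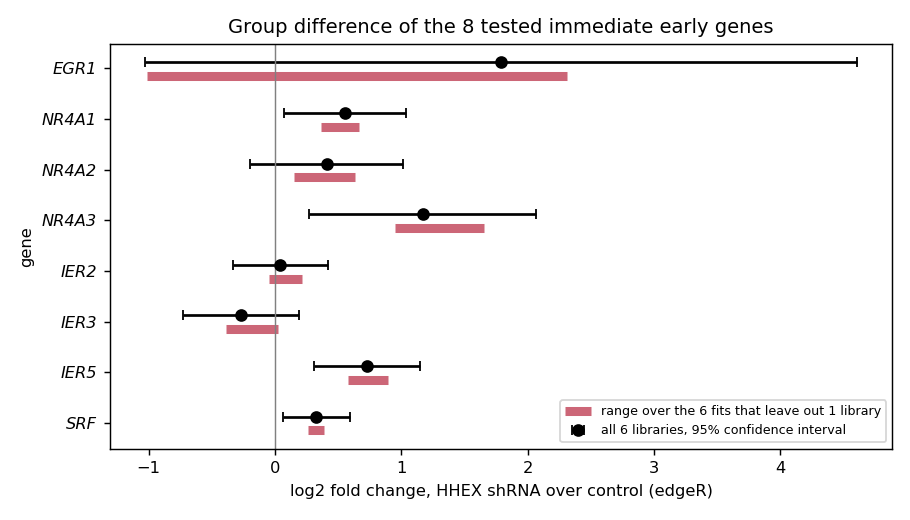
Log2 fold change of the 8 tested genes, HHEX shRNA over control, over all 6 libraries (points with 95% confidence intervals) and the range over the 6 fits that leave out 1 library (bars). EGR1 spans -1.01 to 2.31 over these fits, while NR4A1, NR4A2, NR4A3, IER5 and SRF stay above 0.

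A further 35 immediate early genes were listed, of which 33 were tested. Of these 0 passed edgeR's test, 28 had a positive and 5 a negative log2 fold change, and the median was 0.41. At an unadjusted p under 0.05 there were 12 of the 33, against 20.6% of all tested genes, and DESeq2 called 5, against 6.04%. Without the filter on low counts edgeR called 10, against 4.8% of all genes in that fit, and without KD3 it called 15, against 31.6%. FOSL1, a subunit of AP-1, had the smallest p, at 415, 394 and 278 CPM across KD1, KD2 and KD3, against 166, 169 and 124 CPM in the controls (edgeR adjusted p = 0.0518). SOCS3, a feedback inhibitor of cytokine signalling, stood at 15.2, 15.4 and 14.7 CPM, against 8.59, 8.70 and 9.37 CPM (edgeR adjusted p = 0.0967). MCL1, an inhibitor of apoptosis, and CYR61, a matrix protein, followed with log2 fold changes of 0.64 and 0.57 (edgeR adjusted p = 0.105 and 0.119). Each of these 4, chosen by their p, had every HHEX shRNA library above every control, as did 11 of the 33 genes and 11.6% of all tested genes.

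In KD3 9 of the 33 genes were at least 2-fold above the control mean, where 1.86% of all tested genes were, and 0 were as far below, where 4.77% were. In KD1 FOSL1 was as far above, the 1 gene of the 33 (3.98% of all tested genes), and 4 were as far below (9.86%). In KD2 FOSL1 was again the 1 gene as far above (4.24%), and 3 were as far below (9.96%). The 9 genes, named after their values were seen, were FOS, FOSB, ZFP36, ATF3, RHOB, JUN, TRIB1, DUSP1 and CSRNP1. FOS, the founding immediate early gene and partner of JUN in AP-1, stood at 6.94, 5.93 and 175 CPM across KD1, KD2 and KD3, against 3.44, 5.84 and 5.40 CPM in the controls, and FOSB at 3.71, 2.5 and 57.2 CPM, against 2.09, 3.59 and 1.95 CPM. ZFP36, which binds AU-rich elements and hastens the decay of short-lived mRNAs, stood at 11.4, 7.57 and 59.1 CPM, against 10.2, 14.3 and 8.98 CPM (edgeR adjusted p = 0.371). A level below every control in KD1 and KD2 and above every control in KD3, as in EGR1, was found for 6 of the 33 genes and for 6.86% of all tested genes. These were ATF3, RHOB, PPP1R15A, MAFF, SIK1 and MYC. ATF3, a stress-induced factor, stood at 6.54, 7.07 and 121 CPM across KD1, KD2 and KD3, against 28.5, 31.7 and 30.1 CPM in the controls. PPP1R15A, a phosphatase subunit of the stress response, stood at 122, 115 and 744 CPM, against 347, 411 and 381 CPM in the controls.

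**Figure D4:**
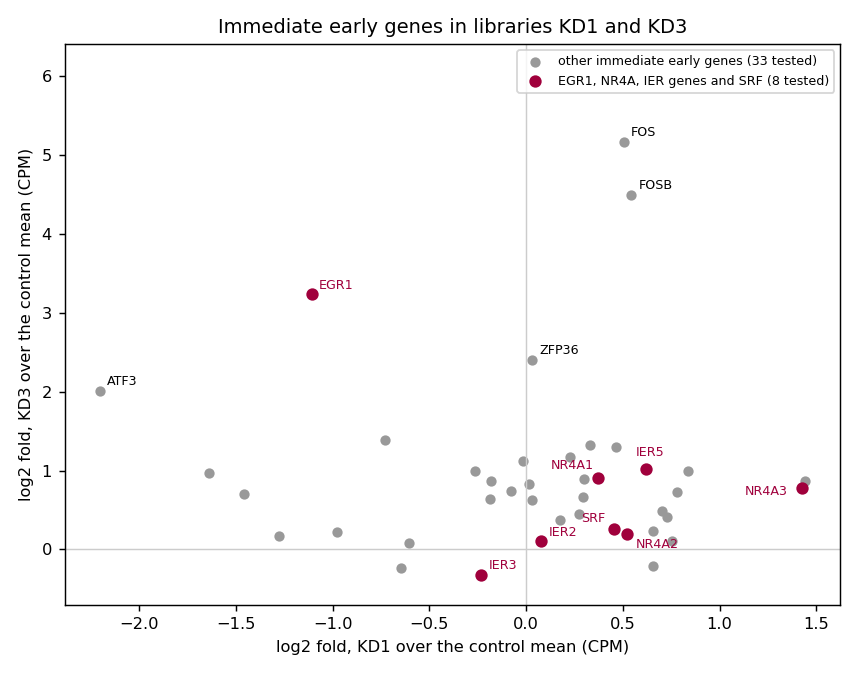
Log2 fold over the control mean in KD1 (horizontal) and in KD3 (vertical) for 8 tested genes of the EGR, NR4A and IER families and SRF (red) and 33 other immediate early genes (grey); both axes share the control libraries. FOS, FOSB, EGR1, ZFP36 and ATF3 lie highest in KD3, and EGR1 and ATF3 lie to the left of 0 in KD1.

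Of 15 kinases and GTPases of the ERK cascade 0 passed edgeR's test, with 10 positive and 5 negative log2 fold changes and a median of 0.20. There were 4 of the 15 with an unadjusted p under 0.05 (20.6% of all tested genes), while DESeq2 called 1 (6.04%) and edgeR without KD3 called 7 (31.6%). MAP2K1, which phosphorylates ERK, stood at 104, 92.5 and 82.3 CPM across KD1, KD2 and KD3, against 65.7, 69.4 and 64.0 CPM in the controls (edgeR adjusted p = 0.119). RPS6KA3, a kinase activated by ERK, stood at 288, 334 and 279 CPM, against 245, 185 and 214 CPM. MAP2K2, the relative of MAP2K1, lay the other way, with a log2 fold change of -0.38 (edgeR adjusted p = 0.242), and NRAS at 0.32 (edgeR adjusted p = 0.211). None of the 15 was at least 2-fold above the control mean in KD1, KD2 or KD3, where 3.98%, 4.24% and 1.86% of all tested genes were. As far below it were 1 in KD1 (9.86% of all tested genes) and 1 in KD2 (9.96%). These counts are near the background.

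Of 18 cytoskeletal targets of SRF and its MRTF cofactors 15 were tested, 0 passed edgeR's test, and 12 were positive with a median log2 fold change of 0.25. An unadjusted p under 0.05 was found for 6 of the 15, against 20.6% of all tested genes, and DESeq2 called 5, against 6.04%. Without the filter on low counts edgeR called 5, against 4.8% of all genes in that fit, and without KD3 it called 8, against 31.6%. TPM4, a tropomyosin, stood at 1083, 1060 and 958 CPM across KD1, KD2 and KD3, against 691, 665 and 607 CPM in the controls (edgeR adjusted p = 0.0986). ACTG1, cytoplasmic actin, was highest in KD3, at 4218, 3946 and 5355 CPM, against 2800, 2713 and 2839 CPM (edgeR adjusted p = 0.126), and has near-identical relatives that can share its reads. VCL, vinculin, and ACTN1, an actinin, had log2 fold changes of 0.70 and 0.46 (edgeR adjusted p = 0.107 and 0.147).

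Of 8 CREB factors and co-activators 0 passed edgeR's test, and the median log2 fold change was 0.09. CRTC1 was the 1 gene of the 8 with an unadjusted p under 0.05 (20.6% of all tested genes), DESeq2 called 0 (6.04%), and edgeR called 1 without the filter (4.8%) and 1 without KD3 (31.6%). CRTC1, a co-activator of CREB, stood at 13.0, 17.1 and 24.5 CPM, below 27.4, 29.01 and 38.4 CPM in the controls (log2 fold change -0.80, edgeR adjusted p = 0.148), while CREB1 lay at 0.19. Of 6 proteins that bind AU-rich elements 0 passed, and all 6 were positive with a median of 0.25. In edgeR none had an unadjusted p under 0.05 and in DESeq2 none was called, while edgeR without KD3 called 2 of the 6, near the 31.6% of all tested genes. ELAVL1, which stabilises such mRNAs, stood at 172, 152 and 108 CPM across KD1, KD2 and KD3, against 113, 118 and 106 CPM.

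Genes with the most similar pattern were taken as those with the highest Pearson correlation of log2 CPM over the 6 libraries among 9399 tested genes with a mean of at least 10 CPM. For EGR1 they were PELI1, MXD1, MSL2, ZNF697 and TRIM16L, with r of 0.989 to 0.991, and 74 genes had an r over 0.95. MXD1, which represses with MAX, stood at 9.64, 9.71 and 47.1 CPM across KD1, KD2 and KD3, against 16.8, 14.9 and 14.97 CPM in the controls. Its likeness to EGR1 follows from how it was chosen and is no separate result. For NR4A1 they were KRT80, TIPRL, ETV3, PLK2 and PITHD1, at 0.981 to 0.998. PLK2, a kinase that is itself induced by serum, stood at 72.8, 69.6 and 117 CPM, against 39.0, 45.9 and 49.9 CPM. For IER3 they were PDLIM7, ARF5, C7orf50, TMEM243 and COX5B, at 0.973 to 0.992, and each of the 5 was highest in control2. With 6 libraries of unequal similarity, 1 library can set such a value, here KD3 for EGR1 and control2 for IER3.

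Other values moved with KD3, the library in which the EGR genes were highest. The summed level of 6 fibroblast markers was 42.5, 47.6 and 14.4 CPM across KD1, KD2 and KD3, against 43.6 to 55.8 CPM in the controls, and that of 5 endothelial markers 14.9, 14.0 and 5.07 CPM, against 14.97 to 16.4 CPM. The summed level of 8 thyroid genes, HHEX among them, was 59.9, 48.9 and 33.4 CPM across KD1, KD2 and KD3, against 46.6 to 69.9 CPM in the controls, and NKX2-1 stood at 37.9, 34.9 and 17.97 CPM, against 26.8 to 50.5 CPM. KD3 was thus below every control in all 3 sums and in NKX2-1, the largest part of the thyroid sum. Of the same list, FOXE1 in KD3 lay above every control (4.44 CPM, against 3.45 to 3.97) and PAX8 within them (3.59 CPM, against 2.99 to 5.47). KD1 was also below every control in the fibroblast sum, and KD1 and KD2 in the endothelial sum. The summed level of 6 epithelial markers was 2142, 1901 and 1314 CPM across KD1, KD2 and KD3, against 1181 to 1558 CPM, with KD3 within the controls. KRT7, KRT8 and KRT18 made up nearly all of it. EPCAM lay at 0.202 to 2.28 CPM over the libraries, KRT19 at 0 to 0.352 CPM and CDH1 at 0 to 0.0747 CPM. COL3A1 made up most of the fibroblast sum and CDH5 of the endothelial one, and COL1A2, TEK and KDR were at 0 or under 0.3 CPM in every library. In KD3 the fibroblast markers COL1A1 (2.61 CPM, against 2.32 to 4.82) and PDGFRB (1.13 CPM, against 1.06 to 1.79) lay within the controls. The summed level of 7 long noncoding RNAs listed for RNA quality was 1589, 1803 and 1590 CPM across KD1, KD2 and KD3, against 1659 to 2320 CPM in the controls. KD3 thus did not stand apart from KD1 there, nor from the other libraries in its total count of 14552665. The sum joins opposite moves, with NEAT1 at 47.4%, 51.4% and 55.9% of its control mean and NORAD at 122%, 134% and 107%. The part of these values in the EGR levels was not tested.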

How the data were processed

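The authors deposited raw read counts per gene in 1 table of 6 libraries. Per the labels' protocols the RNA was extracted with Trizol and turned into libraries with TIANSeq mRNA capture and library kits. No source used here names the aligner, counter, genome build or strand setting. Coordinates of 58672 of 58735 named genes equal those of GENCODE v29 (GRCh38), those of the 10 genes included. Column names give the group but not the replicate label, and 6 further per-library columns were not used. Levels per kilobase were therefore computed from the counts, in place of the planned per-length columns. The 998 rows without a gene name (0.239% to 0.298% of counts) were left out.

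The test was edgeR 4.0.16 under R 4.3.3 (filterByExpr, TMM, robust glmQLFit, glmQLFTest, no covariates), with Benjamini-Hochberg adjustment across the 14280 tested genes and a threshold of 0.05. SE is the fold change over the root of its F. Alternatives were RLE, upper-quartile and no scaling, no filter, DESeq2 1.42.0, a 1.5-fold limit and leaving out each library. Log2 CPM used a prior count of 2. At these depths 3 counts equal 0.198 to 0.225 CPM, and reads carry no molecular identifiers. On counts simulated over 14280 genes at the spread of the 3 controls, which leaves out the spread that KD3 adds to the reported test, 74 of 100 genes changed 2-fold and 93 of 100 changed 4-fold were recovered, with 4 false calls.

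Named were the 10 genes, HHEX, up to 4 genes of each list with the smallest p, and the 5 genes most like EGR1, NR4A1 and IER3. Others were named after their values were seen. The genes and lists were chosen with earlier results of these data known. MKL1 and MKL2 were matched as MRTFA and MRTFB. IER2, NR4A1, EGR3 and IER3 overlap genes on the other strand with at most 6 counts in any library.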

Additional observations from a re-analysis of the deposited data

How the results depend on the processing

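Of the fits over all 6 libraries, RLE, upper-quartile and no scaling called 0 of the 8 tested genes, as did TMM, while DESeq2 and edgeR without the filter on low counts called 1 each. EGR1 had no adjusted p in DESeq2. The number of all genes called was 26 with TMM, 862 with DESeq2 and 1359 without the filter, and leaving out 1 library gave 0 to 4675 genes and 0 to 4 of the 8, with 4675 and 4 without KD3 and 0 to 1 of all genes without any other. The log2 fold change of EGR1 ranged from -1.01 (without KD3) to 2.31 over these fits, that of IER2 from -0.045 to 0.216 and that of IER3 from -0.39 to 0.026, and IER2 was -0.019 with upper-quartile scaling. The cause was not tested. The number of the 8 genes at least 2-fold from the control mean, 1 in KD2 and 2 in KD3, was 2 and 1 with no scaling, 2 and 4 at a limit of 1.5-fold, and 1 to 2 in each when 1 control library was left out. No paired analysis was possible because the columns of the table carry numbers that the labels do not tie to the replicate numbers of the samples. Depth limits EGR2 and EGR3, which had 10 counts or fewer in each library other than KD3.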
